A study of Mus musculus with 6 samples.

Results

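The set described here is the block of mouse zinc finger genes whose symbols run from Zfp600 to Zfp999. Members were all genes whose symbol in both count tables is Zfp followed by a number of 3 digits that begins with 6, 7, 8 or 9, which gave 144 gene identifiers of 39017, with 142 distinct symbols. Zfp850 was listed under 3 identifiers. The rule uses symbols and no measured value. C2H2 zinc finger proteins read DNA with strings of short zinc-binding modules, called fingers, whose contacts with the bases set the preferred sequence. Many of them also carry a KRAB domain, which recruits the scaffold protein Trim28 and through it the histone methyltransferase Setdb1, so that the bound DNA is packed into silent chromatin. In mouse embryonic stem cells (mESCs) this pathway is known for the silencing of endogenous retroviruses, and its genes lie in clusters that grew by repeated duplication. Other members have fingers but no KRAB domain and act as conventional regulators.

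PolyA RNA-Seq was available for 6 libraries of V6.5 mESCs in 3 groups of 2. The untreated group was the Pol II degron line, in which RPB1, the largest subunit of RNA polymerase II, carries an mAID-GFP tag and the plant protein Tir1 is expressed from the Rosa26 locus under doxycycline control. These cells received 1 µg/ml doxycycline for 12 h and no auxin. The auxin group was the same line with the same doxycycline and 500 µM indole-3-acetic acid, an auxin that sends the tagged protein to the proteasome, for 6 h. The third group was wild-type mESCs without the tag, and their records do not say whether they received doxycycline. Degron lines were raised from picked colonies, so a difference between the degron line and wild type may belong to the line as much as to the tag. Doxycycline and the preparation of the libraries may also differ between these groups. Line, tag, doxycycline and preparation cannot be told apart here. All cells were grown on irradiated mouse embryonic fibroblasts, and the study's methods place the harvest after 2 passages of these feeders. The extraction record of the wild-type libraries names retinas. The study's methods call the replicates of its high-throughput experiments biological. The labels do not say whether these libraries came from separate cultures, so p-values measure only the spread between them.

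Total counts per library ranged from 14094022 to 15358714. The 8 embryonic stem cell markers were detected in every library. They summed to 3979 and 4472 counts per 1000000 counts (CPM) in untreated cells and 3365 and 3566 after auxin. In wild type the sums were 6464 and 6427. At an edgeR adjusted p under 0.05, 0 were higher and 4 lower after auxin, beside 2.56% and 1.64% of all genes. In wild type 5 were higher and 1 lower (Zfp42 at −0.18 on the log2 scale), beside 29.9% and 30.7%. Pou5f1 was at 0.08 after auxin and 0.02 in wild type. Dppa5a had 9814 and 12533 counts in untreated cells and 29279 and 29291 in wild type. The 9 fibroblast markers summed to 161 and 155 CPM in untreated cells, 184 and 211 after auxin, and 121 and 127 in wild type. Of 7 tested, 1 was higher and 0 lower after auxin, beside the same shares of all genes. In wild type 1 was higher (Postn at 1.07) and 3 were lower, among them Twist2 at −1.54. In bulk RNA, fewer cells of a type and less RNA per cell cannot be told apart. The 10 retina markers summed to 6.19 to 8.0 CPM in all libraries, and the retinal genes Crx and Rcvrn had no count in any. The 13 mRNAs of the mitochondrial genome took 0.341% and 0.401% of counts in untreated cells, 0.399% and 0.441% after auxin, and 1.53% and 1.50% in wild type. Polr2a, which encodes RPB1, was at a log2 difference of 0.57 after auxin (edgeR adjusted p = 0.00117) and 0.10 in wild type (edgeR adjusted p = 0.172), but auxin acts on the tagged protein, so its mRNA is no check of the labels. The part of the marker and mitochondrial differences in the results below was not tested.

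The identifiers were matched to the GENCODE vM21 annotation of mm10 for 142 of the 144, of which 139 were protein coding and 3 were pseudogenes (Zfp640, Zfp783 and Zfp939). They lay on 19 chromosomes, with 33 on chromosome 7, 19 on chromosome 17, 16 on chromosome 8 and 11 on chromosome 13. Translation of the annotated coding sequences gave a median of 11 fingers per protein, from 0 to 33. A conserved residue pattern of the KRAB box was found in 80 of the 139 proteins and not in 59, although a diverged KRAB box escapes this pattern. Proteins with the pattern had a median of 12 fingers and those without it 8. There were 7 clusters of at least 5 members with gaps of up to 500000 bases between starts, and they held 49 members. In 18 members, 10% or more of the 100-base windows were shared with other genes. Among them were Zfp600 with 67.7%, Zfp708 with 94.3% and Zfp960 with 68.3%. Duplicated copies and genes with overlapping exons both count as shared, and the exons of Zfp708 overlap those of Gm28557 on its own strand. Counts of such genes are uncertain, since reads from shared sequence may have been split or dropped in counting.

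The relation between copies can be read from the longest identical coding stretch of Zfp808 and Zfp934, both members and both on chromosome 13. It is shown because the largest increase in wild type was that of Zfp808. The stretch runs over 200 bases at chr13:62171219-62171418 on the plus strand in Zfp808 and at chr13:62518462-62518661 on the minus strand in Zfp934 (mm10, GENCODE vM21 transcripts). Capitals mark the codons of both cysteines and the first histidine of a finger:
Zfp808 and Zfp934: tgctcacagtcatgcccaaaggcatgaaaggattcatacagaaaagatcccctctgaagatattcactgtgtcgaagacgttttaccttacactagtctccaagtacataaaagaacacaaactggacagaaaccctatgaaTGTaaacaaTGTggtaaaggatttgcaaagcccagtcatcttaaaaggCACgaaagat

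The promoters of members differ widely in CpG content. RefSeq entries (GRCm38.p6) matched 121 of the 144 members, and the 250 bases before each start held a median of 9 CG dinucleotides, beside 6 over 27025 genes. The letters CG were counted without regard to strand, since CG reads the same on both. At least 10 were found in 60 of the 121 members and in 38.2% of all genes. The 5 promoters below are shown for members that changed, 2 after auxin (Zfp747 and Zfp672, of which Zfp747 is from the CpG-poor end) and 3 in wild type, with CG in capitals and the gene's own strand 5′ to 3′. Zfp747 is at chr7:127376051-127376300 on the minus strand, Zfp672 at chr11:58330340-58330589 on the minus strand, Zfp808 at chr13:62129640-62129889 on the plus strand, Zfp945 at chr17:22867135-22867384 on the minus strand and Zfp618 at chr4:62965317-62965566 on the plus strand:
Zfp747: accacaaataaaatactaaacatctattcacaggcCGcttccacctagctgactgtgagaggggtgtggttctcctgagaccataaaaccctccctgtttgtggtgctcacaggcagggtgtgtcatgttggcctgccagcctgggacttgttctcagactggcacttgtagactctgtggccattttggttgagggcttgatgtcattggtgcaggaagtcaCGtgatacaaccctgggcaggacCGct
Zfp672: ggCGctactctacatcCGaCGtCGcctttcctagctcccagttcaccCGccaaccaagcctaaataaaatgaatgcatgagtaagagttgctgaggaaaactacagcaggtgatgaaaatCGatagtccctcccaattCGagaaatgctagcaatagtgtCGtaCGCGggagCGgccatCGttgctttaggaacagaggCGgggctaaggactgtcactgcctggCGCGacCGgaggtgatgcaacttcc
Zfp808: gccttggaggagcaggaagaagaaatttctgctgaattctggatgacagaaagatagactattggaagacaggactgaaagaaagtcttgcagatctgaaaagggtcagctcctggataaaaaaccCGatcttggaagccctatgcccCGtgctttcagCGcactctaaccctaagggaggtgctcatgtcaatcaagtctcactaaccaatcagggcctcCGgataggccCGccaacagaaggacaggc
Zfp945: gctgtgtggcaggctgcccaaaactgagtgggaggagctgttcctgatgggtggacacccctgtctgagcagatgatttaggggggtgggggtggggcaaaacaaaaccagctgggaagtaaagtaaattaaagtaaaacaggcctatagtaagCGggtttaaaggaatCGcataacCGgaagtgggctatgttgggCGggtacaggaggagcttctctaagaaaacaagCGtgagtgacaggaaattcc
Zfp618: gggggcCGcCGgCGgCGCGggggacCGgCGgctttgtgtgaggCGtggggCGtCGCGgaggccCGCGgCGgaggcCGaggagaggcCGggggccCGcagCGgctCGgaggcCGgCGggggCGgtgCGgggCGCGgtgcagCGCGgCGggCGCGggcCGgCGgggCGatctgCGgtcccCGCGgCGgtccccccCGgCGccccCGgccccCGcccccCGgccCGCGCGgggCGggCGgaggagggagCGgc
These windows held 3, 16, 5, 5 and 48 CG in that order, and 48 was the highest count of any member. A count at least as high was found in 70.4%, 25.6%, 55.5%, 55.5% and 0.178% of all promoters in the same order.

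Members were weakly expressed as a set. They took 0.275% and 0.265% of counts in untreated cells, 0.258% and 0.253% after auxin, and 0.306% and 0.309% in wild type. The median level of annotated members in untreated cells, tested or not, was 2.02 CPM per kb of exon. That of all genes, taken over tested ones only, was 4.80. Among genes tested in the auxin comparison, the median count was 141 for members and 310 for all genes. A minimum count filter left 133 members for the test in each comparison. The 11 others were Zfp616, Zfp648, Zfp663, Zfp683, Zfp735, Zfp781, Zfp831, Zfp872, Zfp953, Zfp957 and 1 of the identifiers of Zfp850. No count was found in any library for Zfp616, Zfp735, Zfp953 and that identifier of Zfp850, and a count of 0 allows up to 3 counts, or 0.195 to 0.213 CPM, for counting error only. Zfp683, which encodes the T cell factor Hobit, had between 5 and 8 counts.

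The highest levels per kb of exon in untreated cells were those of Zfp740 at 29.6, Zfp706 at 28.4, Zfp692 at 25.3, Zfp655 at 24.8 and Zfp710 at 21.5 CPM per kb. Zfp706 encodes a small protein with 1 finger. Its counts were 1949 and 2144 in untreated cells, 1996 and 1909 after auxin and 2981 and 2977 in wild type. The wild-type values lay above all others.

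The first comparison asks what 6 h without RPB1 does to the RNA of these genes. Few members changed relative to other mRNAs. At an adjusted p under 0.05 (edgeR quasi-likelihood test, Benjamini-Hochberg over all tested genes), 3 of 133 members rose, or 2.26%, beside 2.56% of all 16128 genes. Another 4 fell, or 3.01%, beside 1.64% of all genes. Together they were 7 members, or 5.26%, beside 4.2% of all genes. These shares are near the background. In 29 members both auxin libraries lay above both untreated libraries, or 21.8%, beside 25% of all genes, and in 41 they lay below, or 30.8%, beside 24.8%. The median log2 fold change was −0.00 for members and −0.00 for all genes, and 119 of the 133 members, or 89.5%, moved by less than 0.5 in either direction. At an unadjusted p under 0.05 there were 34 members, or 25.6%, beside 20.1% of all genes. No member passed the threshold with a log2 fold change beyond 1 in either direction, where the background was 1.49% higher and 0.0434% lower. Counts are relative within a library, so a loss shared by all mRNAs does not appear in these values.

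**Figure D1:**
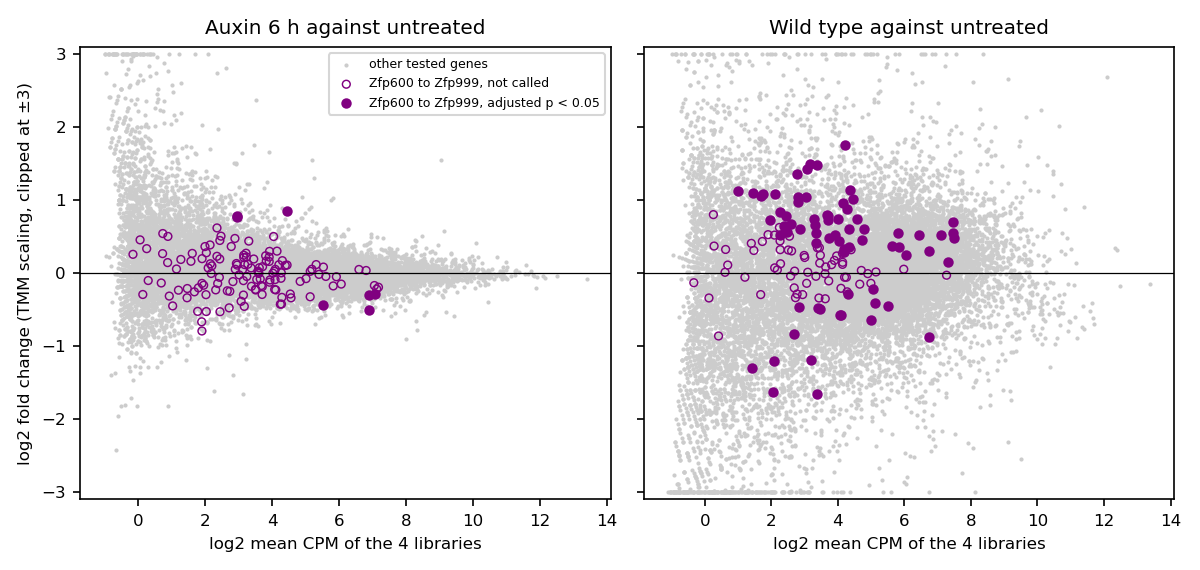
Log2 fold change (TMM scaling, clipped at 3 in both directions) against log2 mean CPM for auxin (left) and wild type (right), each against untreated cells. Grey points are other tested genes, open circles members not called and filled circles members at an adjusted p under 0.05. Members scatter around 0 after auxin, with 7 called, whereas 71 are called in wild type, 54 of them higher. The higher calls turn to lower when libraries are scaled to mitochondrial mRNAs.

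The largest rise after auxin was that of Zfp703, a co-repressor of the NET family whose human counterpart is amplified in breast tumours. Zfp703 had 235 and 216 counts in untreated libraries and 446 and 429 after auxin. The groups did not overlap, and the log2 fold change was 0.85 (SE 0.10, edgeR adjusted p = 0.000995). Its exons overlap those of Gm45371 on the opposite strand, and whether the counting used strand is not given in the sources used here.

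Zfp747, a KRAB gene in a cluster on chromosome 7, had 75 and 89 counts in untreated libraries and 166 and 138 after auxin (log2 fold change 0.79, SE 0.18, edgeR adjusted p = 0.0264). Zfp672, a protein of 14 fingers without the KRAB pattern, had 73 and 92 counts in untreated libraries and 163 and 139 after auxin (log2 fold change 0.77, SE 0.18, edgeR adjusted p = 0.0317). For both genes each auxin library lay above each untreated library. Of the transcribed windows of Zfp747, 10.5% are shared with other genes, most often with 9130019O22Rik.

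The 4 members that fell were all well expressed. Zfp655 had 1813 and 2206 counts in untreated libraries and 1611 and 1431 after auxin, and fell by 0.51 on the log2 scale (SE 0.09, edgeR adjusted p = 0.00776). Zfp961 had 767 and 758 counts and then 647 and 562, and fell by 0.44 (SE 0.08, edgeR adjusted p = 0.0131). In both genes the 2 groups were separate. Zfp652, which encodes a repressor of the CBFA2T family of complexes, had 1831 and 2012 counts and then 1771 and 1578, and fell by 0.30 (SE 0.07, edgeR adjusted p = 0.0379). Zfp710 had 1992 and 2310 counts and then 1909 and 1866, and fell by 0.29 (SE 0.07, edgeR adjusted p = 0.0475). The exons of Zfp652 overlap those of Phospho1 on its own strand and of Abi3 on the other, and Zfp710 overlaps Gm44949 on the opposite strand.

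Members with a mean of 1000 counts or more had a lower median after auxin. There were 9, namely Zfp609, Zfp622, Zfp646, Zfp652, Zfp655, Zfp664, Zfp706, Zfp710 and Zfp740. Their median log2 fold change was −0.19, beside −0.02 for all genes of that level, and 7 of the 9 lay below 0. Of these, 3 were called lower, where 3.50% of all genes of that level were. No test of the class was run. Zfp609, a partner of the cohesin loader Nipbl, was at −0.19 (SE 0.06, edgeR adjusted p = 0.111), and Zfp622, which takes part in the maturation of the large ribosomal subunit, at 0.05.

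Most of these calls were lost in DESeq2 or with a library left out. DESeq2 called Zfp703 higher and Zfp655 and Zfp961 lower and no other member, beside 176 higher and 114 lower of all 16128 genes. When a library is left out, the lone library of its group is assumed to vary like the other group. The median log2 fold change of members was −0.01 without auxin replicate 1 and −0.02 without auxin replicate 2. It was 0.04 without untreated replicate 1 and −0.10 without untreated replicate 2. Over all genes it was 0.00, −0.00, 0.00 and 0.00 in the same order. With auxin replicate 1 or 2 left out, the log2 fold change of Zfp672 was 0.67 and 0.86 and that of Zfp747 was 0.66 and 0.90. That of Zfp710 was −0.29 in both cases. With each library left out in turn, Zfp710 ran from −0.38 to −0.19, Zfp652 from −0.37 to −0.24 and Zfp961 from −0.53 to −0.36. Zfp655 ran from −0.63 to −0.37, Zfp672 from 0.62 to 0.93, Zfp747 from 0.66 to 0.90 and Zfp703 from 0.78 to 0.93. The directions were thus kept, while the sizes varied with the library left out and most calls were lost. Zfp703 was the only member called under all of the alternative settings tried other than those with mitochondrial scaling or a fold limit. Of genes that mark other cells, the fibroblast gene Col1a2 rose by 0.36 on the log2 scale after auxin (edgeR adjusted p = 0.0224), and its part in the calls was not tested.

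**Figure D2:**
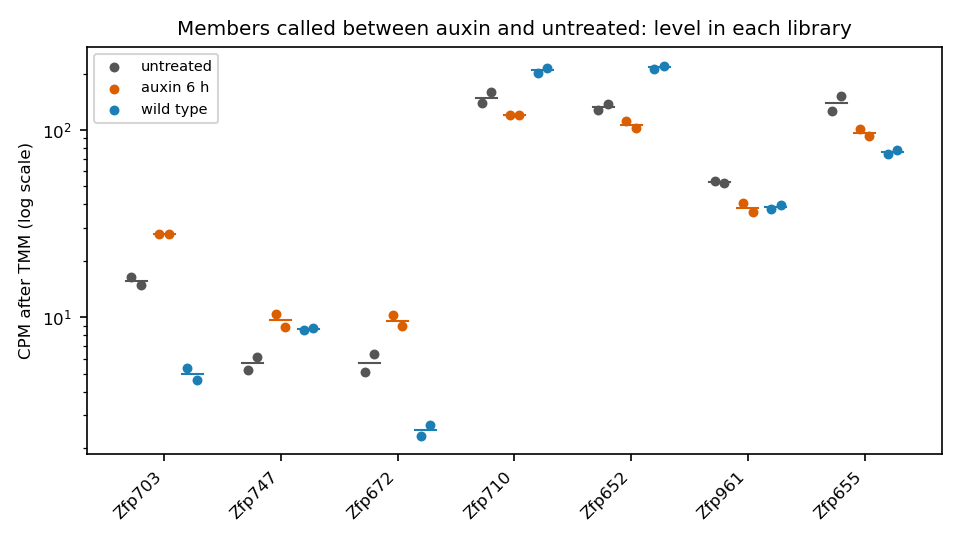
CPM after TMM scaling (log axis) in each of the 6 libraries for the 7 members called between auxin and untreated cells. Points are libraries and bars are means of 2. The auxin points of Zfp703, Zfp747 and Zfp672 lie above the untreated points, those of Zfp710, Zfp652, Zfp961 and Zfp655 below.

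Wild-type cells were sequenced to ask how far untreated degron cells stand from the unmodified line. More members differed here, and mostly upwards. At an adjusted p under 0.05 (edgeR), 54 of 133 members were higher in wild type, or 40.6%, beside 29.9% of all 15778 genes tested. Only 17 were lower, or 12.8%, beside 30.7% of all genes. The median log2 fold change was 0.30 for members and −0.01 for all genes. In 74 members both wild-type libraries lay above both untreated libraries, or 55.6%, beside 40% of all genes, and in 26 below, or 19.5%, beside 41%. In either direction 71 were called, or 53.4%, beside 60.6% of all genes. Above a log2 fold change of 1 there were 14 members, or 10.5%, beside 7.12% of all genes, and below −1 there were 5, or 3.76%, beside 11% of all genes.

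These directions hold on the TMM scale, which centres the bulk of genes near 0. When libraries were scaled to the 13 mitochondrial mRNAs, the median of all genes was −2.10 and that of members −1.80. No member was then called higher and 132 were called lower, beside 73 higher and 15235 lower of all 15778 genes. The direction of each increase below thus flips on that scale, as it does for most genes. The members stood above the median of all genes on both scales. At most levels of expression the members were also above other genes, with medians of 0.32, 0.47, 0.24, 0.05 and 0.48 in classes of under 50, 50 to 100, 100 to 300, 300 to 1000 and over 1000 mean counts, beside −0.24, −0.07, −0.09, 0.02 and 0.12 for all genes.

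The largest increase was that of Zfp808, a KRAB protein of 22 fingers on chromosome 13. It had 137 and 108 counts in untreated libraries and 421 and 400 in wild type (log2 fold change 1.75, SE 0.13, edgeR adjusted p = 6.22e-07). Both wild-type counts lay far above the others. In the auxin libraries the fold change against untreated cells was 0.05.

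Zfp936 had 70 and 64 counts in untreated libraries and 172 and 205 in wild type (log2 fold change 1.50, SE 0.17). Zfp960 had 86 and 70 counts and then 211 and 223 (log2 fold change 1.48, SE 0.16). However, 68.3% of its windows are shared with other genes, most often with Zfp97. Zfp945, a protein of 18 fingers on chromosome 17, had 180 and 191 counts and then 403 and 406 (log2 fold change 1.14, SE 0.10). In all of these the wild-type libraries lay close together and apart from the untreated ones, with edgeR adjusted p of 1.82e-05, 1.22e-05 and 2.51e-06. Zfp719 with 59 and 50 counts rose to 135 and 142, Zfp773 with 15 and 19 to 31 and 43, and Zfp626 with 28 and 20 to 50 and 52. Zfp773 lost its call in DESeq2 (adjusted p = 0.0639) and without wild-type replicate 2 (edgeR adjusted p = 0.0933).

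**Figure D3:**
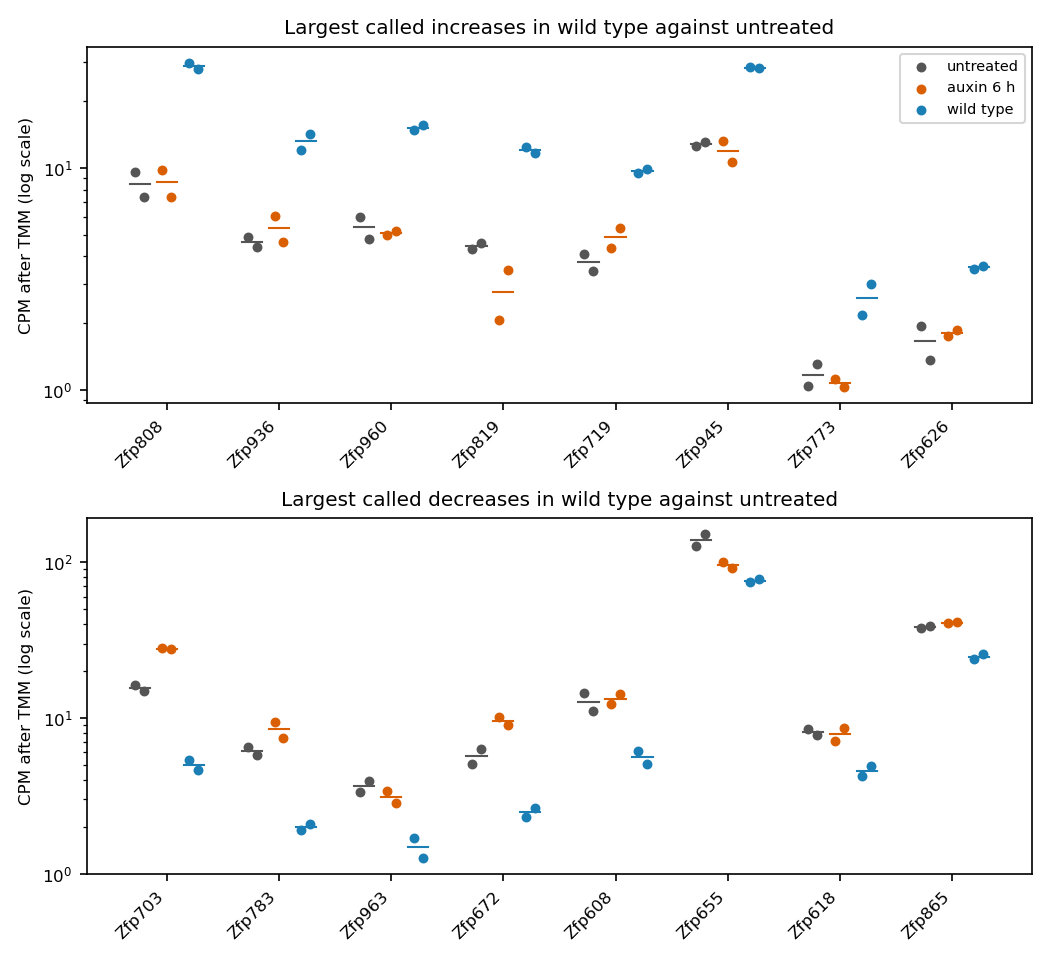
CPM after TMM scaling (log axis) in each library for the 8 largest called increases (top) and decreases (bottom) in wild type against untreated cells. Points are libraries and bars are means of 2. Wild-type points lie above all untreated points in the top panel and below them in the bottom panel. On the mitochondrial scale the increases in the top panel turn to decreases.

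Among the decreases Zfp703 came first, with 76 and 66 counts in wild type against 235 and 216 in untreated cells. It fell by 1.65 on the log2 scale (SE 0.16, edgeR adjusted p = 4.80e-06). Zfp672 had 33 and 38 counts in wild type and fell by 1.20 (SE 0.24, edgeR adjusted p = 0.001). Both genes were also called after auxin, in the other direction, and both comparisons use the same untreated libraries.

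Zfp783, a pseudogene whose exons overlap those of Zfp956, had 94 and 84 counts in untreated cells and 27 and 30 in wild type, and fell by 1.63 (SE 0.23, edgeR adjusted p = 0.000103). Zfp963 had 48 and 57 counts and then 24 and 18, and fell by 1.31 (SE 0.29, edgeR adjusted p = 0.00213), with 36.2% of its windows shared with other genes. Zfp608, a relative of Zfp609, had 206 and 161 counts and then 87 and 72, and fell by 1.20 (SE 0.19, edgeR adjusted p = 0.000196). The wild-type counts of each were under the lowest untreated count. Zfp655 had 1058 and 1116 counts in wild type and fell by 0.87, and Zfp865 went from 539 and 570 to 339 and 368 and fell by 0.64. Of the windows of Zfp865, 25.2% are shared, most often with Zfp784, whose exons it overlaps on the opposite strand. Its exons also overlap those of 4632433K11Rik, Ccdc106 and Gm44973 on its own strand.

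Set by role, the members known as regulators on their own were mixed. Of the 20 genes listed, Zfp638 is not analysed here, and 17 passed the filter. After auxin 1 rose (Zfp703) and 1 fell (Zfp652), beside 2.56% and 1.64% of all genes. In wild type 7 were higher (41.2%) and 3 were lower (17.6%), beside 29.9% and 30.7% of all genes. Zfp644, a partner of the H3K9 methyltransferases G9a and GLP, went from 721 and 583 counts to 943 and 954 (log2 fold change 0.55, SE 0.10, edgeR adjusted p = 0.000421). Zfp652 went to 3011 and 3164 counts (log2 fold change 0.70, SE 0.06, edgeR adjusted p = 3.41e-06). Both were separated from the untreated counts. Zfp706 (0.55), Zfp622 (0.30), Zfp692 (0.35), Zfp704 (0.25) and Zfp750 (1.06), which drives epidermal differentiation, were also higher on the log2 scale. Zfp750 rested on few counts, 32 and 26 in untreated cells and 65 and 55 in wild type (SE 0.26). Zfp704 lost its call without either wild-type replicate, with edgeR adjusted p of 0.0842 and 0.0507.

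Of the 3 lower regulators, Zfp703 and Zfp608 are given above. Zfp618, a partner of the methylcytosine-binding protein Uhrf2, had 121 and 113 counts in untreated cells and 60 and 70 in wild type, and fell by 0.84 (SE 0.19, edgeR adjusted p = 0.00248). No call was made for Zfp609 (−0.03), Zfp687 (0.05), a partner of Zmynd8, Zfp827 (0.12), which brings the NuRD complex to telomeres, Zfp830 (0.04), a splicing factor, Zfp668 (0.27), Zfp711 (−0.86) or Zfp768 (−0.30). Zfp711 had only 27 and 19 counts in untreated cells and 9 and 16 in wild type. The other listed genes without a test were Zfp683 and Zfp831, with at most 9 counts in any library.

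Members linked to retroelements or stem cells were 5 of the 7 listed, since Zfp982 and Zfp989 are not analysed here. None was called after auxin (edgeR), beside 2.56% higher and 1.64% lower over all genes, and DESeq2 called none. There 1 had an unadjusted p under 0.05, beside 20.1% of all genes. In wild type 3 were higher and none was lower, with edgeR and with DESeq2. Over all genes edgeR called 29.9% higher and 30.7% lower. In wild type 4 had an unadjusted p under 0.05, beside 64.6% of all genes. Zfp819, a KRAB protein of pluripotent cells, had 62 and 67 counts in untreated libraries, 33 and 54 after auxin and 177 and 168 in wild type (log2 fold change 1.43 in wild type, SE 0.17, edgeR adjusted p = 2.12e-05). Zfp932, which restrains endogenous retroviruses of the ERVK class, had 195 and 159 counts and 268 and 239 in wild type (log2 fold change 0.53, SE 0.14, edgeR adjusted p = 0.00648). It lost the call without wild-type replicate 1, where the log2 fold change was 0.44. Of its windows, 18.5% are shared with other genes, most often with Gm15446.

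Zfp600 had 258 and 253 counts in untreated libraries and 414 and 435 in wild type (log2 fold change 0.74, SE 0.09, edgeR adjusted p = 3.59e-05). Of its windows, 67.7% are shared with other genes, most often with Rex2. Zfp708, which binds the retroelement RMER19B, was at 0.63 (SE 0.26, edgeR adjusted p = 0.0578). Zfp809, known for recognising the primer binding site of murine leukaemia proviruses, had 303 and 256 counts in untreated libraries and 276 and 257 in wild type. Its groups overlapped, and its log2 fold change was −0.06 (SE 0.12, edgeR adjusted p = 0.691).

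The silencing machinery that KRAB proteins rely on was also mostly higher in wild type. Of 24 identifiers tested (Fam208a is not analysed here, and Atf7ip has 2), 18 were higher (75%) and 1 lower (4.17%), beside 29.9% and 30.7% of all genes, with a median of 0.50. Trim28 had 17170 and 17942 counts in untreated cells and 17485 and 17668 in wild type, a log2 fold change of 0.01 that was not called. The H3K9 methyltransferase Setdb1 was at 0.42 (SE 0.07, edgeR adjusted p = 0.00022), and the HP1 proteins Cbx3, Cbx1 and Cbx5 were at 1.49, 0.71 and 0.47. Mphosph8 of the HUSH complex was at 0.85 and the maintenance methylation factor Uhrf1 at 0.85. Chd3, a NuRD remodeller, fell by 0.94. After auxin none was higher and 2 were lower (edgeR), namely Morc3 at −0.32 and Smarcad1 at −0.34. Over all genes 2.56% were higher and 1.64% lower after auxin. At an unadjusted p under 0.05 there were 10, beside 20.1% of all genes, and DESeq2 called 0 in either direction. On the mitochondrial scale all 24 were below 0 in wild type, from −3.05 to −0.57 with a median of −1.60, where the median of all genes was −2.10.

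Members with a KRAB pattern and those without it are given apart for wild type. With the pattern 33 of 73 were higher (45.2%) and 4 lower (5.48%), and the median was 0.37. Without it 19 of 55 were higher (34.5%) and 12 lower (21.8%), and the median was 0.05. The shares over all genes were 29.9% and 30.7%, so that the share called higher without the pattern was nearer to that of all genes. Medians were larger with more fingers, being 0.01 with up to 4 fingers, 0.07 with 5 to 9, 0.33 with 10 to 14 and 0.51 with 15 or more. In the last class 16 of 30 members were higher and 2 lower. After auxin the median was −0.01 with the KRAB pattern and −0.00 without it. With the pattern 1 of 73 was called higher and 1 lower, and without it 2 of 55 higher and 3 lower. Over all genes 2.56% were higher and 1.64% lower after auxin. These classes were compared as counts, and no test of the difference was run.

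The clusters are given in turn for wild type, beside 29.9% higher and 30.7% lower over all genes, and no difference between clusters was tested. In the cluster at chr7:43114229-43618285 all 5 members, Zfp936, Zfp715, Zfp658, Zfp719 and Zfp819, were higher, with a median log2 fold change of 1.35. Zfp715 was the weakest at 0.28 and lost its call in DESeq2 (adjusted p = 0.169) and without untreated replicate 2, wild-type replicate 1 or wild-type replicate 2 (edgeR adjusted p of 0.108, 0.135 and 0.18). Zfp658 rested on few counts, 36 and 24 in untreated cells and 61 and 65 in wild type. In the cluster at chr13:66669928-67687071, 5 of 6 tested members (Zfp640, Zfp712, Zfp759, Zfp748 and Zfp738) were higher, and the median was 0.69. The other was Zfp708. Here Zfp759 lost its call in DESeq2 (adjusted p = 0.0892) and without untreated replicate 2 or wild-type replicate 2 (edgeR adjusted p of 0.102 and 0.145), Zfp712 without wild-type replicate 1 (edgeR adjusted p = 0.0752), and Zfp640 without untreated replicate 1 or wild-type replicate 2 (edgeR adjusted p of 0.0825 and 0.0679).

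On chromosome 17, the cluster at chr17:32765496-33033402 had 4 of 6 members higher (Zfp871, Zfp799, Zfp870 and Zfp763), with a median of 0.41. The cluster at chr17:21383748-22867134 had 4 of 11 higher (Zfp820, Zfp942, Zfp944 and Zfp945), with a median of 0.32, and Zfp943 beside Zfp942 was at −0.04 where Zfp942 was at 0.60. Neighbours in a cluster thus had different values. The remaining clusters had medians below 0. The cluster at chr6:47819266-48086593 had 2 of 5 lower (Zfp783 and Zfp777), that at chr7:127244274-127885996 had 2 of 9 higher (Zfp747 and Zfp646) and 1 lower (Zfp771), and that at chr8:69209038-69791178 had 2 of 6 higher (Zfp930 and Zfp869) and 3 lower (Zfp868, Zfp963 and Zfp866), with medians of −0.22, −0.11 and −0.21. Of these, Zfp777 lost its call without wild-type replicate 1 or 2 (edgeR adjusted p of 0.114 and 0.241), Zfp771, Zfp747, Zfp930 and Zfp866 without wild-type replicate 2 (0.232, 0.065, 0.096 and 0.0638), Zfp869 without untreated replicate 2 or wild-type replicate 2 (0.0784 and 0.186), and Zfp868 without untreated replicate 1, wild-type replicate 1 or wild-type replicate 2 (0.183, 0.188 and 0.0958). In DESeq2 the calls of Zfp777, Zfp771, Zfp747, Zfp869 and Zfp868 were lost (adjusted p of 0.194, 0.0691, 0.0522, 0.0766 and 0.162), and that of Zfp777 also with the replicate block (edgeR adjusted p = 0.0502). Outside clusters 32 of 85 were higher and 11 lower, with a median of 0.24.

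**Figure D4:**
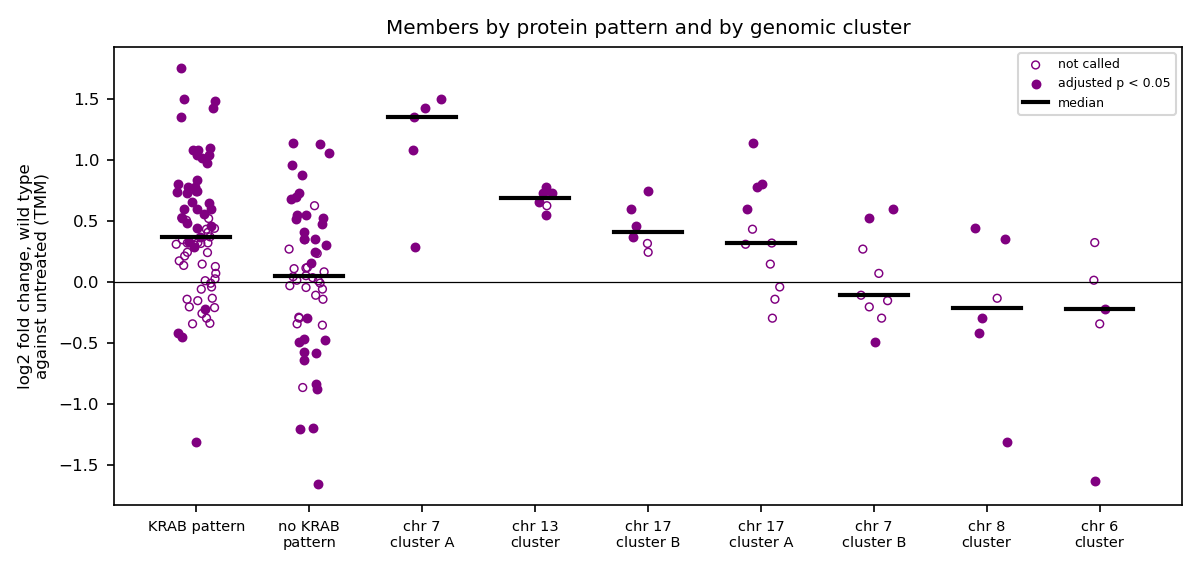
Log2 fold change in wild type against untreated cells (TMM scaling) for each tested member, by KRAB pattern and by genomic cluster, with A for the cluster nearer the start of a chromosome and B for the other. Filled points have an adjusted p under 0.05 and black bars are medians. The first chromosome 7 cluster has a median of 1.35 and the chromosome 6 cluster −0.22. All increases turn to decreases under mitochondrial scaling.

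Promoter CpG content is set here beside the calls in wild type, with no test. The 43 higher members with a promoter entry had a median of 8 CG in 250 bases, with a range of 2 to 44. The 14 lower ones had a median of 17.5 (3 to 48) and the 55 not called 10 (2 to 38), so the ranges overlapped widely. Zfp808 and Zfp945, among the largest increases, had 5 each, as printed above, whereas Zfp819, also among them, had 17. Zfp618, among the decreases, had 48, the highest count of any member. By protein pattern the medians were 8 with KRAB and 16 without it. Among members without the pattern the medians were 6 for 13 higher, 18.5 for 20 not called and 18 for 9 lower. Among those with it they were 8 for 29 higher, 8.5 for 34 not called and 11.5 for 4 lower. After auxin the 2 higher members with an entry had 3 and 16, the 4 lower ones had a median of 9.5 (2 to 21), and the 106 not called had a median of 10.

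**Figure D5:**
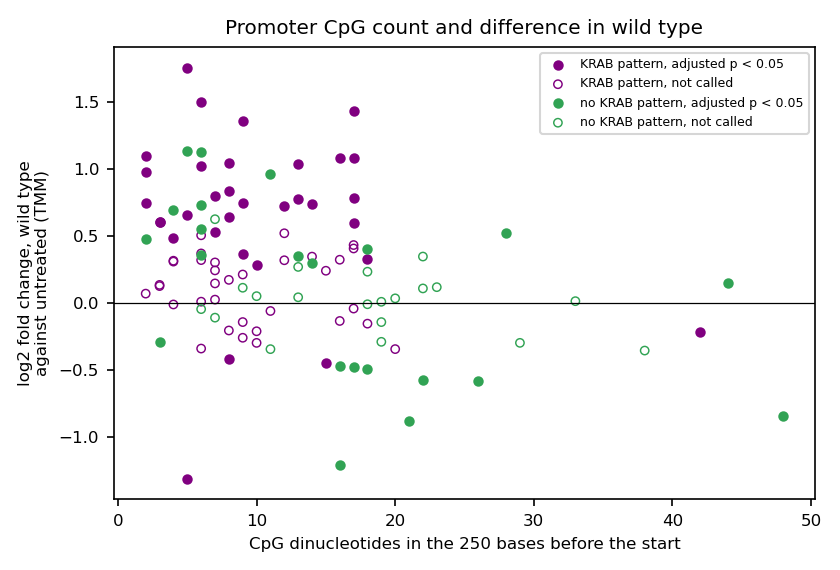
Log2 fold change in wild type against untreated cells (TMM scaling) against the number of CG dinucleotides in the 250 bases before the start of each member. Purple marks the KRAB pattern, green its absence, and filled points an adjusted p under 0.05. Higher members have a median of 8 (2 to 44) and lower members 17.5 (3 to 48), and the increases turn to decreases under mitochondrial scaling.

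Other zinc finger genes were counted in wild type by the same calls, beside 29.9% higher and 30.7% lower over all genes. Of 188 tested Zfp genes with lower numbers, 68 were higher (36.2%) and 26 lower (13.8%), with a median of 0.19. Of 27 tested Zscan and Zkscan genes, 9 were higher (33.3%) and 7 lower (25.9%), with a median of 0.04. No difference between these sets and the members was tested. After auxin these sets had 1 higher and 5 lower, and 0 and 0 (edgeR), with medians of −0.05 and 0.03. Over all genes 2.56% were higher and 1.64% lower after auxin. At an unadjusted p under 0.05 there was 1 Zscan or Zkscan gene after auxin, beside 20.1% of all genes, and DESeq2 called 0. When only the 114 tested members with under 10% shared windows were kept, 42 were higher and 15 lower in wild type, with a median of 0.24.

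Of the 71 calls in wild type, 48 were kept under every alternative other than mitochondrial scaling and a fold limit, and 1 of the 7 calls after auxin was. The median log2 ratio of replicate 2 to replicate 1, over 87 members with a mean of 100 counts or more, was −0.04 in untreated cells, −0.02 after auxin and 0.02 in wild type. Zfp740 and Zfp747 were among the calls lost, Zfp740 (0.15, SE 0.06, edgeR adjusted p = 0.0481) in DESeq2 (adjusted p = 0.117), without wild-type replicate 1 or 2 (edgeR adjusted p of 0.389 and 0.135) and with library totals, no filter, 10 counts in every library or the replicate block (edgeR adjusted p of 0.192, 0.0774, 0.0688 and 0.075). Zfp747 (0.60) lost its call in DESeq2 (adjusted p = 0.0522) and without wild-type replicate 2 (edgeR adjusted p = 0.065).

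For the members called after auxin, the values in wild type can be set beside those after auxin, with the caution that the same untreated libraries enter both. Zfp703 was at 0.85 after auxin and −1.65 in wild type, Zfp672 at 0.77 and −1.20, and Zfp747 at 0.79 and 0.60. Zfp655 was at −0.51 and −0.87, Zfp961 at −0.44 and −0.45, Zfp652 at −0.30 and 0.70, and Zfp710 at −0.29 and 0.48. All 7 were also called in wild type.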

How the data were processed

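The authors deposited raw gene counts for 6 libraries, as whole numbers per GENCODE gene, not normalized, in 2 tables, 1 for the degron line and 1 for wild type. The submitters' processing notes name HISAT2 2.1.0, Salmon, HTSeq and DESeq2 and the build mm10. The annotation release and strand setting are not given in the sources used here. The deposited columns of the authors' own comparison (means, fold changes and p-values) and 2 columns of counts that match no sample were not used. Paired reads were counted, so counting error is large for low genes, and intervals and floors cover counting error only.

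Tables were joined on gene identifiers (39017). Testing used edgeR 4.0.16 under R 4.3.3 (glmQLFit and glmQLFTest, TMM, filterByExpr with a minimum count of 10, Benjamini-Hochberg adjustment over all tested genes), on the 4 libraries of each comparison, with a prior count of 0.125. The test was checked on simulated counts. CPM was computed after TMM, and per kb from the exon union of GENCODE vM21 (mm10). Marker sums used library totals. Identical 100-base windows were searched on both strands of all transcripts, so that antisense overlap counts as shared. KRAB and finger patterns were read from translated coding sequences. Promoters were RefSeq sequences.

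Alternatives were DESeq2 1.42.0, other scalings and filters, a replicate block, all groups in 1 fit, a fold limit, members with few shared windows, a prior count of 2 and each library left out. Members named in the text are both role lists, the 8 largest non-overlapping calls per direction, the 5 highest levels, the 3 smallest p per comparison and members of the clusters. The filtered-out members, the members of 1000 or more counts and the silencing machinery are named besides. The members and lists were chosen with earlier results of these data known.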

Additional observations from a re-analysis of the deposited data

How the results depend on the processing

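With 2 libraries per group, counts after auxin depend on the settings. The members called higher (3) became 1 in DESeq2, 0 with mitochondrial scaling, 1 without a filter, 6 with the replicate block and 0 with a log2 fold limit of 1, and 1 to 9 with a library left out. Those called lower (4) became 2 in DESeq2, 1 with mitochondrial scaling, 0 without a filter and 2 with 10 counts in every library. They became 12 with the replicate block, 11 with all groups in 1 fit and 0 with the fold limit. Over all genes, 264 called lower became 114, 52, 12, 186, 849, 668 and 7 in the same order. The median after auxin became −0.18 with mitochondrial scaling (all genes −0.17) and ran from −0.10 (without untreated replicate 2) to 0.038 (without untreated replicate 1). In wild type the members called higher (54) became 0 with mitochondrial scaling and 14 with the fold limit, and those called lower (17) became 132 and 5. Over all genes, 4713 called higher became 73 and 1124, and 4842 called lower became 15235 and 1737. The median became 0.24 with library totals, 0.24 with under 10% shared windows and −1.80 with mitochondrial scaling. On that scale every tested member lay below 0 in wild type (highest −0.35), where the median of all genes was −2.10, so all increases reversed. The 51 reversed values among members named by the rule were Zfp600 −1.35, Zfp622 −1.79, Zfp626 −1.0, Zfp640 −1.53, Zfp644 −1.56, Zfp646 −1.58, Zfp652 −1.40, Zfp658 −1.02, Zfp668 −1.82, Zfp687 −2.05, Zfp692 −1.74, Zfp704 −1.85, Zfp706 −1.54, Zfp708 −1.48, Zfp710 −1.61, Zfp712 −1.31, Zfp715 −1.81, Zfp719 −0.74, Zfp738 −1.43, Zfp740 −1.95, Zfp746 −2.08, Zfp747 −1.48, Zfp748 −1.37, Zfp750 −1.04, Zfp758 −1.66, Zfp759 −1.36, Zfp760 −1.80, Zfp763 −1.36, Zfp764 −2.00, Zfp773 −0.95, Zfp786 −1.76, Zfp799 −1.50, Zfp808 −0.35, Zfp811 −1.78, Zfp819 −0.66, Zfp820 −1.29, Zfp827 −1.98, Zfp830 −2.06, Zfp869 −1.74, Zfp870 −1.63, Zfp871 −1.73, Zfp930 −1.65, Zfp932 −1.58, Zfp936 −0.59, Zfp942 −1.49, Zfp944 −1.31, Zfp945 −0.96, Zfp947 −1.79, Zfp948 −1.96, Zfp952 −1.84 and Zfp960 −0.61. Scaling to mitochondrial mRNAs divides by their share of counts, which was higher in wild type, and so lowers all values there. The cause of that share and of the changes under other settings was not tested. Deviations of same-numbered libraries correlated at 0.12 (auxin) and −0.06 (wild type), so the numbers were not taken to pair them. The block gave 56 members higher and 17 lower in wild type, beside 4775 and 4914 of all genes.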
